A study of Mus musculus with 12 samples.

Results

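The genes described here encode the target of the drug ISRIB and the machinery that drug acts on. They are the 5 subunits of eIF2B (Eif2b1, Eif2b2, Eif2b3, Eif2b4 and Eif2b5), the 4 kinases of eIF2 alpha (Eif2ak1, Eif2ak2, Eif2ak3 and Eif2ak4) and eIF2 alpha itself (Eif2s1), chosen by name, and all 10 were among the 24552 gene symbols of the deposited table. RNA was sequenced from mouse macrophages cultured out of bone marrow (BMDM) over 6 days, with the growth factor M-CSF at 10 ng/ml. The cells received DMSO (vehicle) or ISRIB at 50 nM for 1 h. M1-like polarization then took 16 h in LPS (10 ng/ml) and interferon gamma (25 ng/ml), with DMSO or drug still present. There were 4 groups of 3 biological replicates, M0 and M1 cells in vehicle and M0 and M1 cells in ISRIB, and the labels do not say what M0 cells received during the stimulation, nor the strain, age, sex or number of mice.

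eIF2 brings the initiator methionyl-tRNA to the ribosome in its GTP-bound form, and eIF2B is the exchange factor that recharges eIF2 with GTP. When a kinase phosphorylates eIF2 alpha, the phosphorylated eIF2 inhibits eIF2B, bulk translation falls and selected mRNAs such as that of ATF4 are translated more. This is the integrated stress response. ISRIB binds at the interface between eIF2B subunits and holds the complex in its active form, and a phosphatase containing Ppp1r15a or Ppp1r15b reverses the phosphorylation. The response is controlled largely by phosphorylation and translation, which RNA counts do not measure.

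Among these genes only Eif2ak2, which encodes PKR, the kinase activated by double-stranded RNA and a known interferon-induced gene, had enough counts to be tested. The counts under its symbol rose in M1 cells, with and without ISRIB, and no effect of ISRIB on them was detected in M0 or M1 cells. The other 9 genes held between 0 and 71 counts over all 12 libraries. ISRIB's own target, the 5 eIF2B subunits together, had 29 counts in 12 libraries. Because the strand setting of the counting is not given in the sources used here, a count printed under a symbol may be of reads from the opposite strand at that gene, and this was not tested.

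Library totals lay between 439976 and 514037 counts, and a single count came to 1.79 to 2.57 CPM (counts scaled by library size). Even numbers were more common than odd ones, making up 61.3% of all counts above 0 and 32 of the 51 member values above 0. A value of 2 occurred 12645 times in the table and a value of 1 occurred 6991 times. Limits of 3 counts cover counting error only.

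The sequence around the start of Eif2ak2 is shown because this gene carries the measured change. Eif2ak2 lies on the minus strand of chromosome 17, from 78852564 to 78882573 (GRCm38, which is mm10, the build named in the submitters' processing notes). Sequences are from RefSeq (GRCm38.p6), whose windows of 250 bases before and 50 after the start site matched 9 of the 10 genes, all but Eif2b3, with 10 windows because Eif2ak4 had 2. In the line below, chr17:78882545-78882574 on the minus strand, the capitals mark a match to the interferon-stimulated response element, searched as GAAA, any 2 bases and GAAA.
Eif2ak2 start: gggaaggcggagtccgccggGAAAACGAAA

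The interferon-stimulated response element match in Eif2ak2 covers bases 20 to 29 of the annotated first exon. Searched on both strands, this element was in 3.44% of 32851 promoter windows of all genes, and in the windows of Eif2ak2 and Eif2s1 among the 10 genes. Another motif, TGATGNAAN, part of the composite element bound by C/EBP and ATF factors, was in 3.95% of all windows and in none of the 10 windows. A match describes letters, not binding.

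Eif2ak2 had 13, 17 and 23 counts in the 3 vehicle M0 libraries and 72, 43 and 37 in vehicle M1. In ISRIB-treated cells it had 26, 27 and 19 counts in M0 and 46, 98 and 58 in M1. Every M1 library was above every M0 library, within each treatment and across both.

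In CPM, scaled with TMM factors, Eif2ak2 stood at 33.7 ± 11.6 (SD, n = 3) in vehicle M0 and 126.6 ± 47.8 in vehicle M1, a ratio of means of 3.76. The log2 fold change was 1.91 ± 0.39 (SE; edgeR quasi-likelihood test, Benjamini-Hochberg adjusted p = 0.000224). ISRIB-treated cells had 46.3 ± 9.57 CPM in M0 and 156.9 ± 55.6 CPM in M1, a ratio of 3.39, and a log2 fold change of 1.76 ± 0.37 (edgeR adjusted p = 0.000364). Averaged over both treatments, the M1 difference was 1.83 ± 0.27 (edgeR adjusted p = 1.81e-06).

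Differences between M1 and M0 were common among the 2356 genes tested. In vehicle 24.3% were called higher and 20.5% lower in M1, together 44.8%. In ISRIB-treated cells 23.9% were higher and 20.9% lower, again 44.8% together. The average over both treatments gave 29.9% higher and 27.9% lower, together 57.9%. Eif2ak2 was thus 1 of 572 genes called higher in vehicle. The deposited log2 values of Eif2ak2 separated M1 from M0 as well. Vehicle M0 libraries had 3.59, 3.90 and 4.52, and vehicle M1 libraries had 6.50, 5.74 and 5.45. With ISRIB these log2 values were 4.71, 4.55 and 4.10 in M0 and 5.84, 6.72 and 6.06 in M1.

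Markers of the labelled cell type were checked. All 10 macrophage markers examined had counts in some library. Their sum was 543.1 to 885.8 CPM in vehicle M0 and 357.3 to 721.1 in vehicle M1. With ISRIB it was 507.5 to 736.1 in M0 and 526.9 to 720.6 in M1. Single markers in this sum moved in different directions between M0 and M1. Lyz2 had 146 to 334 counts in M0 libraries and 38 to 106 in M1, while Itgam had 4 to 18 and 17 to 49. Mrc1 had 0 counts in all M1 libraries and up to 5 in M0. T cell, B cell, neutrophil, fibroblast and erythroid lists had at most 4 counts in any library, and all fibroblast and erythroid markers were at 0. Of 5 dendritic cell markers 3 had counts, and Flt3 and Zbtb46 were at 0 in all libraries. Their sum differed between M0 and M1 as Eif2ak2 did, from 48.6 to 68.0 CPM in vehicle M0 and 41.6 to 123.6 in ISRIB M0 to 834.1 to 1022 in vehicle M1 and 953.1 to 1065 in ISRIB M1. This came from Xcr1, with 6 to 19 counts in M0 libraries and 325 to 434 in M1, while Clec9a had 10 to 47 counts in M0 and 0 in M1. The part of these markers in the Eif2ak2 result was not tested, and in bulk RNA a change in cell number and a change per cell cannot be told apart.

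No difference of Eif2ak2 between ISRIB and vehicle was called by edgeR, and each 95% interval included no change. The log2 difference between ISRIB and vehicle was 0.46 in M0, with a 95% interval from -0.37 to 1.29, and 0.31 in M1, from -0.41 to 1.03. The edgeR adjusted p was 0.998 in M0 and 0.976 in M1, and the unadjusted edgeR p was 0.264 and 0.378. Averaged over M0 and M1 the difference was 0.39, from -0.16 to 0.93, with an edgeR adjusted p of 0.866. ISRIB libraries and vehicle libraries overlapped in both states.

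The effect of ISRIB on Eif2ak2 was not shown to differ between M1 and M0. The interaction was -0.15 on the log2 scale, with a 95% interval from -1.23 to 0.94 and an edgeR adjusted p of 0.983. Its sign turned to positive when replicate 1 of vehicle M0, of vehicle M1 or of ISRIB M1 was left out, to 0.023, 0.18 and 0.017. Across all 2356 genes edgeR called 0% in each ISRIB contrast and in the interaction. Without the filter on low counts edgeR called 0 genes for ISRIB in M1, 10 in M0, 9 in the interaction and 2 in the average, of 10978 genes, and no member was among them. At an unadjusted p under 0.05 there were 134 genes (5.69%) for ISRIB in M1, 143 (6.07%) in M0, 167 (7.09%) in the interaction and 146 (6.2%) in the average. DESeq2's Wald test called 0, 3, 0 and 0 genes in these contrasts and limma-voom 0, 1, 0 and 0, and Eif2ak2 was not among them.

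**Figure D1:**
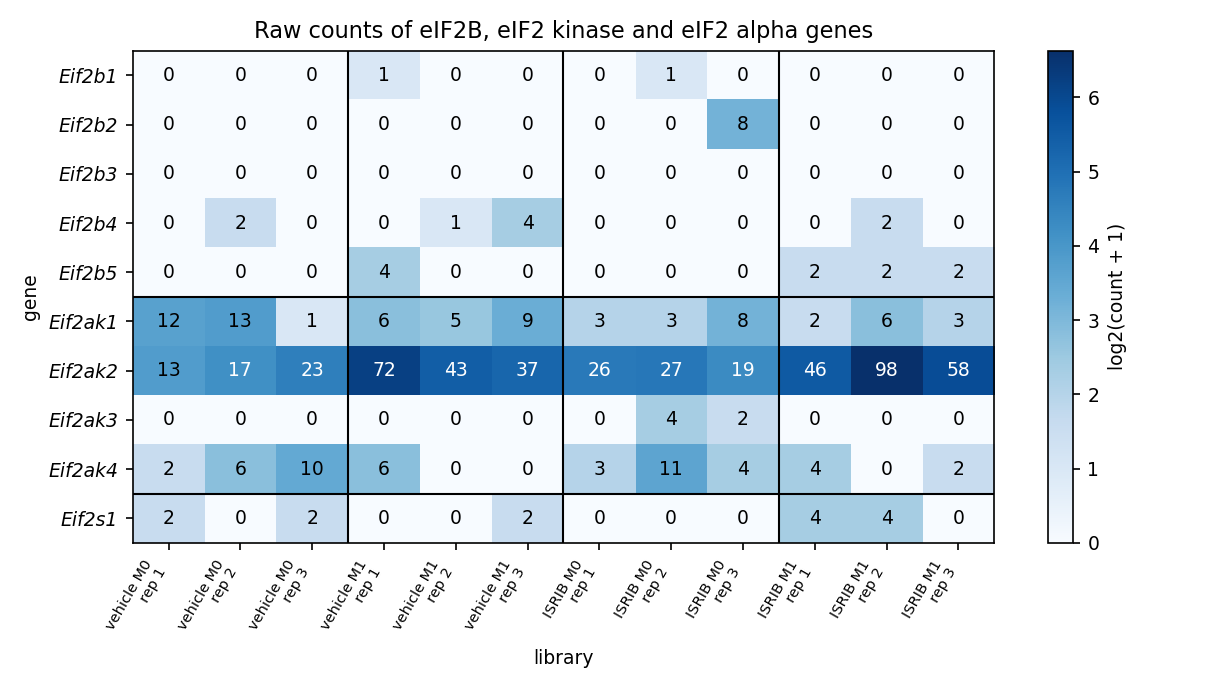
Raw counts of the 10 genes (rows) in each of the 12 libraries (columns), with the number printed in each cell and the shade giving log2(count + 1). Eif2ak2 runs from 13 to 98 counts, and no other gene reaches more than 13 counts in any library.

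The kinase genes took most of the counts. The 4 kinases held 604 counts over 12 libraries, of which Eif2ak2 made up 79.3%, and the values by sample are shown in the grid of raw counts. Per kilobase of annotated exon, the mean over 12 libraries was 17.8 CPM for Eif2ak2, 2.19 for Eif2ak1, 1.10 for Eif2ak4 and 0.152 for Eif2ak3. Eif2ak2 was thus the highest of the 4 per length, while the order of the other 3 rests on few counts.

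Eif2ak1 encodes HRI, the kinase activated by haem shortage and by mitochondrial stress, and lies on the plus strand of chromosome 5, from 143817788 to 143904251. It had 12, 13 and 1 counts in vehicle M0, 6, 5 and 9 in vehicle M1, 3, 3 and 8 in ISRIB M0 and 2, 6 and 3 in ISRIB M1. All 4 groups overlapped, and replicate 3 of vehicle M0 was the lowest library. Eif2ak1 was below the filter on low counts. In a fit without that filter, added after the counts were seen, the log2 difference of M1 from M0, averaged over treatments, was -0.07 with a 95% interval from -1.50 to 1.35, and its sign depended on the libraries included. That of ISRIB from vehicle, averaged over M0 and M1, was -0.87, from -2.31 to 0.56.

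Eif2ak4 encodes GCN2, the kinase activated by amino acid shortage, and lies on the plus strand of chromosome 2, from 118388618 to 118475234. Its counts were 2, 6 and 10 in vehicle M0, 6, 0 and 0 in vehicle M1, 3, 11 and 4 in ISRIB M0 and 4, 0 and 2 in ISRIB M1. The 3 libraries without a count were all M1, and the ranges of M0 and M1 overlapped. Without the filter on low counts the log2 difference of M1 from M0, averaged over treatments, was -1.25, with a 95% interval from -3.05 to 0.54 and an edgeR adjusted p of 0.444. Replicate 1 of vehicle M1, with 6 counts, decided this value. Leaving that library out also loosened the filter, which then kept 2654 genes in place of 2356. Eif2ak4 was among them through its M0 counts of 10 and 11, which favours a gene higher in M0. Its log2 difference in that fit was -3.33 ± 1.35 (SE), and it was called lower (edgeR adjusted p = 0.0421). Without the filter and without that library the log2 difference was -3.38 (edgeR adjusted p = 0.0738).

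Eif2ak3 encodes PERK, the kinase of the endoplasmic reticulum membrane that responds to unfolded proteins, and lies on the plus strand of chromosome 6, from 70844515 to 70905245. It had 4 counts in replicate 2 and 2 counts in replicate 3 of ISRIB M0, and 0 in the other 10 libraries. A count of 0 allows up to 3 counts in a library, which was worth 5.37 to 7.71 CPM, so a difference between groups was not detectable at this depth.

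**Figure D2:**
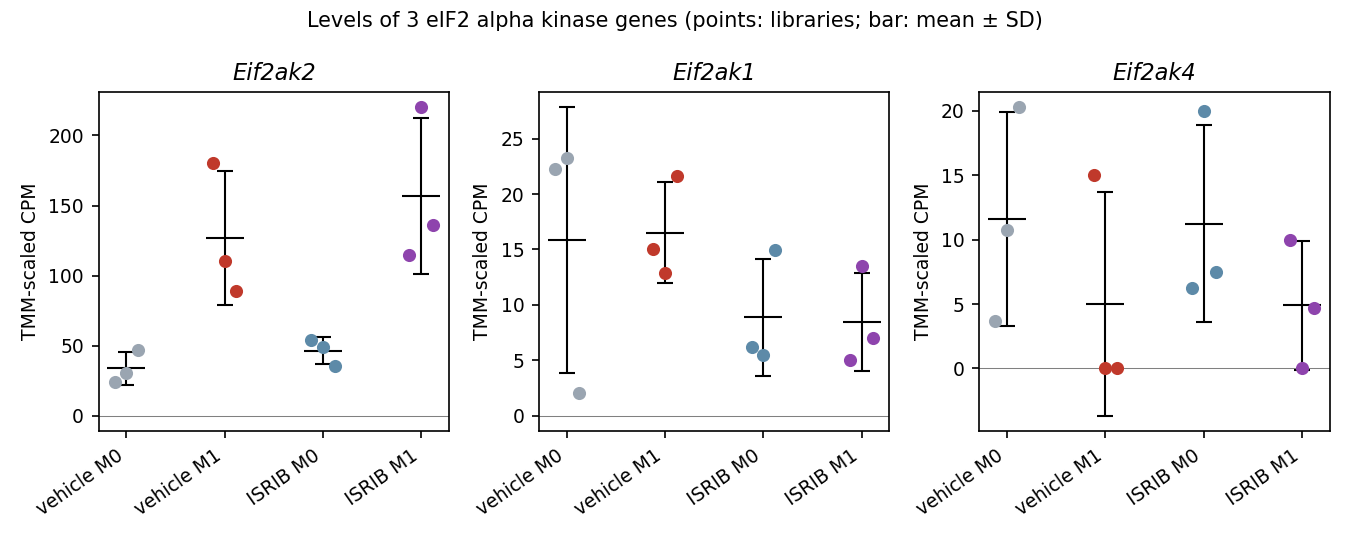
TMM-scaled CPM of Eif2ak2, Eif2ak1 and Eif2ak4 (separate vertical scales) in the 4 groups, with a point for each of 3 libraries and a bar for the mean ± SD. The M1 points of Eif2ak2 lie between 88.9 and 220.0 CPM, all above the M0 points, which reach 54.1, while the groups of Eif2ak1 and Eif2ak4 overlap.

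The eIF2B subunits form a decamer of paired subunits, in which Eif2b5 (epsilon) and Eif2b3 (gamma) are catalytic and Eif2b1 (alpha), Eif2b2 (beta) and Eif2b4 (delta) are regulatory. Of their 60 values in 12 libraries, 11 were above 0. Summed over the 5 subunits and 3 libraries, vehicle M0 had 2 counts and vehicle M1 had 10, while ISRIB M0 had 9 and ISRIB M1 had 8. No single library held more than 8.

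ISRIB binds across the beta and delta subunits. Eif2b2 (beta), on the plus strand of chromosome 12 from 85219481 to 85226628, had 8 counts in replicate 3 of ISRIB M0 and 0 in the other 11 libraries. Eif2b4 (delta), on the minus strand of chromosome 5 from 31187558 to 31193430, had 0, 2 and 0 counts in vehicle M0, 0, 1 and 4 in vehicle M1, 0 in all of ISRIB M0 and 0, 2 and 0 in ISRIB M1. Counts of Eif2b4 thus overlapped between all 4 groups, and those of Eif2b2 came from a single library. Eif2b1 (alpha), on the minus strand of chromosome 5 from 124570213 to 124579131, had 1 count in replicate 1 of vehicle M1 and 1 in replicate 2 of ISRIB M0.

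Of the catalytic subunits, Eif2b5 (epsilon), on the plus strand of chromosome 16 from 20498817 to 20509323, had 4, 0 and 0 counts in vehicle M1, 2 in each ISRIB M1 library and 0 in all 6 M0 libraries. Eif2b3 (gamma), on the plus strand of chromosome 4 from 117019402 to 117087306, had 0 counts in all 12 libraries. Eif2b3 shared this with 55.3% of all symbols in the table. These counts set no order among the subunits.

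Eif2s1, the phosphorylated alpha subunit of eIF2, lies on the plus strand of chromosome 12, from 78861819 to 78887010. It had 2, 0 and 2 counts in vehicle M0, 0, 0 and 2 in vehicle M1, 0 in all of ISRIB M0 and 4, 4 and 0 in ISRIB M1. The groups overlapped, and the 14 counts in total were too few for a test. Of the 9 genes below the filter, the 8 with a count were also fitted with edgeR without a filter. None of these 8 passed an adjusted p of 0.05 in any contrast. Of all 10978 genes in that fit, edgeR called 1013 between M1 and M0 in vehicle, 984 in ISRIB and 1633 in the average.

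Annotated neighbours on the opposite strand bear on how these counts may be read. Libraries were strand-specific per the labels, and HTSeq is named in the submitters' processing notes, but the strand setting of the counting is not given in the sources used here. In the deposited table, 24.1% of the 24030 symbols matched to the GENCODE M21 annotation (GRCm38) had an exon overlapping an exon on the opposite strand, and these held 92.3% of the matched counts. Among the 2356 tested genes the share was 65.9%. A list of 10 genes that every cell uses, chosen after the counts were seen and including Actb, Gapdh and Eef1a1, held 3117 counts in all, or 0.0545% of the table, and 9 of the 10 had no opposite-strand exon overlap. Actb had between 24 and 306 counts in a library, and Hprt between 0 and 4. The counts given here for Eif2ak2, for the other 9 genes and for list genes such as Ppp1ca may be those of transcripts on the other strand, and low counts of a gene here do not show that its mRNA was scarce. Which strand the counted reads of a gene came from was not tested.

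Of the 10 genes, 4 had such a neighbour, namely Eif2ak1, Eif2ak2, Eif2ak3 and Eif2b4, and 6 had none, either by exons or by whole gene bodies. Eif2ak2, the gene with the most counts, overlaps the lincRNA Gm26637 by 174 bases and the 5S ribosomal RNA entry n-R5s29 by 47. The whole first exon of Eif2ak2, 174 bases from 78882400 to 78882573, lies inside a Gm26637 exon of 603 bases, which also holds the motif match shown above. Neither neighbour has a row of its own among the 24552 symbols, so their counts cannot be set beside those of Eif2ak2.

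Eif2ak1 overlaps Aimp2, a scaffold protein of the aminoacyl-tRNA synthetase complex, by 487 exonic bases and Ankrd61, an ankyrin repeat gene, by 172. Aimp2 held 1295 counts over 12 libraries against 71 for Eif2ak1. It had 164, 183 and 130 counts in vehicle M0, 49, 47 and 82 in vehicle M1, 142, 114 and 154 in ISRIB M0 and 70, 74 and 86 in ISRIB M1. Aimp2 was lower in M1 by a log2 fold change of -1.02 ± 0.23 (SE) in vehicle, with an edgeR adjusted p of 0.000802. In ISRIB-treated cells the value was -0.54 ± 0.23 with an edgeR adjusted p of 0.0559, and the difference between the treatments did not pass (edgeR adjusted p = 0.792). Ankrd61 had from 0 to 26 counts in a library.

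Eif2b4 overlaps Snx17, a sorting nexin of the endosome, by 204 bases at their start sites. Snx17 held 445 counts against 9 for Eif2b4, between 18 and 63 in a library, and did not pass in any contrast. Its log2 fold change between M1 and M0 averaged over treatments was 0.21 ± 0.28 (SE). Eif2ak3 overlaps the unclassified transcript Gm43292 by 485 bases, which was not among the symbols.

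**Figure D3:**
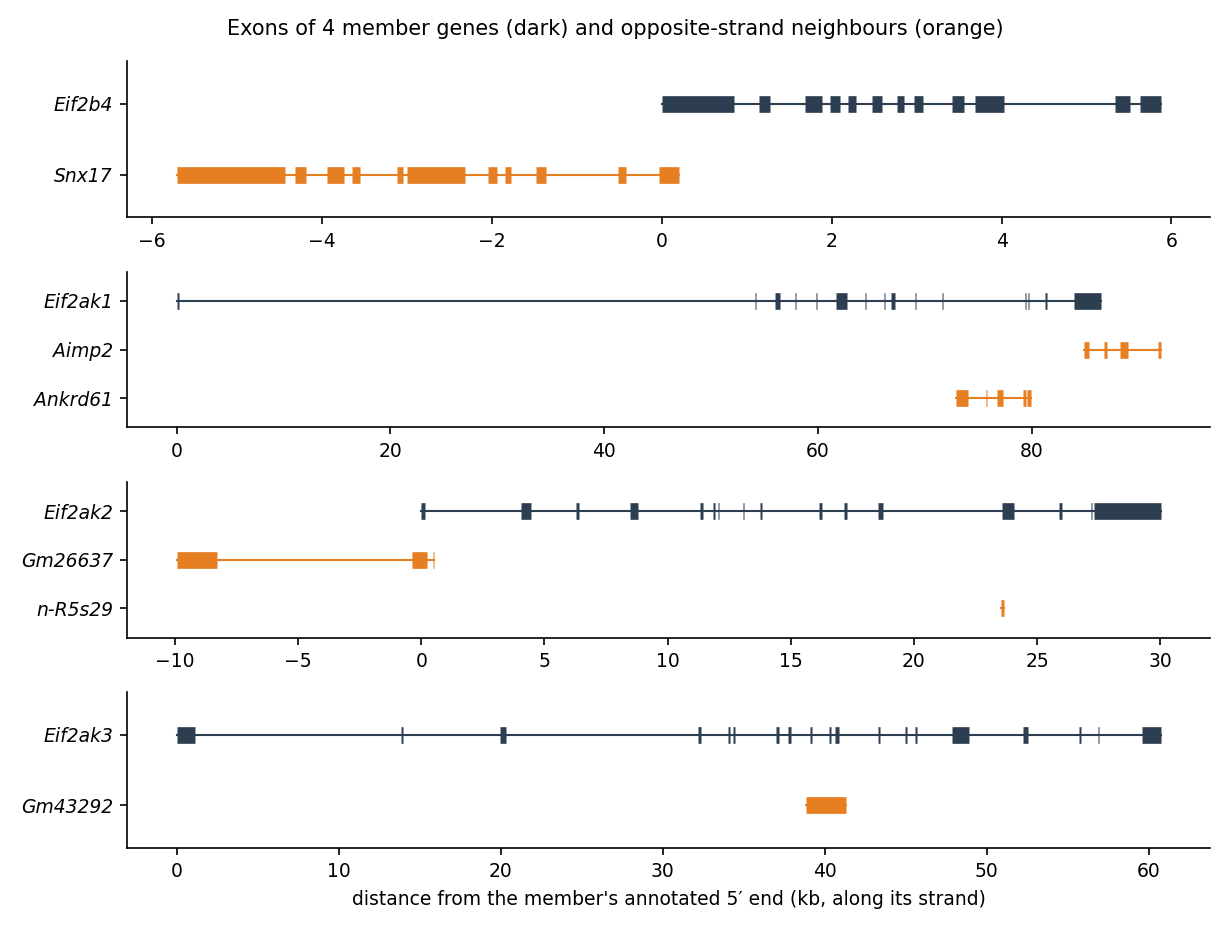
Exons (blocks) of the 4 genes with an opposite-strand neighbour and of those neighbours, against distance in kb from the annotated start along the gene's own strand. Gm26637 and Snx17 overlap the starts of Eif2ak2 and Eif2b4, while Ankrd61 and Aimp2 lie at the end of Eif2ak1 and Gm43292 lies past the middle of Eif2ak3.

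Regulators and partners of eIF2 were examined through a list of 40 names, of which 37 matched a symbol in the table. They include the other eIF2 subunits, initiation factors that work with eIF2, the eIF2 alpha phosphatases and chaperones that act on the kinases. Only 9 of the 37 passed the filter on low counts, and 28 did not. Those without enough counts included Eif2s2 and Eif2s3x, the other subunits of eIF2, with 22 and 2 counts over 12 libraries, Atf4 with 26 and the inducible phosphatase subunit Ppp1r15a with 14. In the fit without a filter, edgeR called 8 list genes higher in M1 averaged over treatments, beside 1633 of all 10978 genes called. These included Eif1 (36 counts, edgeR adjusted p = 0.00432) and Fmr1 (18 counts, edgeR adjusted p = 0.0194). Denr, with 40 counts, was called higher only in some edgeR fits with a library left out. Of the 9, edgeR called 6 higher and 0 lower in vehicle M1, beside 24.3% higher and 20.5% lower of all tested genes. In ISRIB M1 it called 5 higher and 0 lower, beside 23.9% and 20.9%. The median log2 fold change of the 9 was 1.79 in vehicle and 1.08 in ISRIB, against 0.01 and -0.01 over all tested genes. A gene can pass the filter through its M0 or its M1 counts alone, so these values describe the 9 genes and not the list.

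Both phosphatase genes that could be tested were called higher in M1, beside 24.3% of all tested genes in vehicle and 23.9% in ISRIB. The filter can keep a gene on its M0 or its M1 counts alone, so this is not a result about phosphatase genes as a group. Ppp1r15b, the constitutive targeting subunit of the eIF2 alpha phosphatase, had 2, 14 and 4 counts in vehicle M0 and 36, 28 and 45 in vehicle M1. With ISRIB it had 6, 4 and 0 counts in M0 and 23, 48 and 31 in M1, with no overlap of M1 and M0 in either treatment. Its log2 fold change was 2.83 ± 0.63 (SE) in vehicle and 3.57 ± 0.69 in ISRIB, with edgeR adjusted p-values of 0.000620 and 0.000136. Its size depended on single libraries, and it was 3.90 in vehicle without replicate 2 of vehicle M0, and 4.32 and 2.98 in ISRIB without replicates 1 and 3 of ISRIB M0. Ppp1r15b overlaps the unclassified transcript Gm26616, not among the symbols, by 640 bases.

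Ppp1ca, a catalytic subunit of protein phosphatase 1, was higher in M1 by 1.02 ± 0.24 (SE) in vehicle and 0.95 ± 0.24 in ISRIB on the log2 scale. It stood at 164.3 ± 56.0 CPM (SD, n = 3) in vehicle M0 and 331.3 ± 9.67 in vehicle M1, and at 143.7 ± 38.1 and 276.6 ± 16.8 in ISRIB M0 and M1. The edgeR adjusted p-values were 0.000959 and 0.00210, and no M1 library overlapped an M0 library of the same treatment. Ppp1ca overlaps Rad9a, which held 23645 counts, by 225 bases on the opposite strand.

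All 3 chaperone genes that could be tested were called higher in M1, beside 24.3% of all tested genes in vehicle and 23.9% in ISRIB. A gene can pass the filter through its M0 or its M1 counts alone. A gene with few M0 counts is thus kept only where it is higher in M1. Hspa8, the constitutive cytosolic Hsp70, had 6, 14 and 0 counts in vehicle M0 and 34, 19 and 52 in vehicle M1, and with ISRIB 10, 10 and 18 in M0 and 52, 76 and 42 in M1. It had a log2 fold change of 2.78 ± 0.59 (SE) in vehicle and 2.44 ± 0.54 in ISRIB, with edgeR adjusted p-values of 0.000404 and 0.000653. Hsp90aa1 is a cytosolic Hsp90 that HRI is known to need for its maturation. It had 0, 18 and 2 counts in vehicle M0 and 38, 10 and 31 in vehicle M1. With ISRIB it had 4, 12 and 6 counts in M0 and 55, 26 and 50 in M1. In vehicle the states overlapped, with replicate 2 at 32.2 CPM in M0 and 25.7 CPM in M1. The log2 fold changes of Hsp90aa1 were 2.38 ± 0.73 in vehicle and 2.88 ± 0.71 in ISRIB, with edgeR adjusted p-values of 0.00952 and 0.00184. Without replicate 2 of vehicle M0 the vehicle values were 3.86 for Hspa8 and 4.90 for Hsp90aa1, and without replicate 1 of vehicle M1 Hsp90aa1 was at 2.02 (edgeR adjusted p = 0.0531). Near copies and processed pseudogenes of these genes may share reads with them, which makes their counts uncertain.

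Hspa5 (BiP), the endoplasmic reticulum chaperone that holds PERK inactive, had 20, 9 and 7 counts in vehicle M0, 19, 15 and 62 in vehicle M1, 4, 20 and 0 in ISRIB M0 and 17, 42 and 32 in ISRIB M1. These raw counts overlapped between M0 and M1 in both treatments. Scaled to CPM they did not, though M0 and M1 lay close together. In vehicle, M0 libraries reached 37.1 CPM and M1 libraries began at 38.6. With ISRIB, M0 reached 36.4 CPM and M1 began at 42.5. The log2 fold change was 1.79 ± 0.70 (SE) in vehicle, with an edgeR adjusted p of 0.0389. In ISRIB it was 2.21 ± 0.73, with an edgeR adjusted p of 0.0159. The vehicle call was lost with limma-voom (adjusted p = 0.0550) and with limma on the deposited log2 values (adjusted p = 0.101), and it rested on replicate 3 of vehicle M1, without which the value was 0.94 with an adjusted p of 0.371. In vehicle it was also lost without replicate 2 or 3 of vehicle M0 or replicate 3 of ISRIB M1, with edgeR adjusted p-values of 0.113, 0.122 and 0.0502. In ISRIB it was lost without replicate 1 or 3 of ISRIB M0 or replicate 2 of ISRIB M1, with adjusted p-values of 0.0562, 0.0644 and 0.0557, and the value was 4.06 without replicate 2 of ISRIB M0.

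Eif5, the GTPase-activating protein of eIF2, was not counted in any vehicle M0 library and had 12, 2 and 16 counts in vehicle M1. Set against a floor of 3 counts per vehicle M0 library, 5.67 CPM on average, its mean in vehicle M1 was 4.33-fold higher. This ratio leaves out the spread between M1 libraries, and replicate 2 of vehicle M1, at 5.14 CPM, was below that floor. The edgeR adjusted p of 0.00107 belongs to the fit on the counts themselves and not to this ratio. In ISRIB-treated cells Eif5 had 2, 12 and 8 counts in M0 and 4, 14 and 20 in M1, which overlapped. Its log2 fold change there was 1.08 ± 0.90 (SE; edgeR adjusted p = 0.342). The interaction did not pass (edgeR adjusted p = 0.434).

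The remaining 3 tested genes, Eif5b, Ddit3 and Eif2a, with 3453, 477 and 81 counts over 12 libraries, did not pass in any contrast by edgeR. For Eif2a, a separate initiation factor, the choice of tool mattered. Its log2 difference of M1 from M0 averaged over treatments was -1.44 by edgeR (adjusted p = 0.0872), and it was called lower by limma-voom (-1.68, adjusted p = 0.0313) and by limma on the deposited log2 values (-1.43, adjusted p = 0.0354). It was also called lower by edgeR without replicate 1 of vehicle M1 (-2.01, adjusted p = 0.0479) and without replicate 1 of ISRIB M1 (-2.02, adjusted p = 0.0416). Of the 9 tested list genes 5 had an opposite-strand exon overlap, against 65.9% of all tested genes. These were Ppp1r15b, Ppp1ca, Eif5b, Ddit3 and Eif2a. Eif5b overlaps Rev1, which held 2074 counts, by 1643 bases. Ddit3 overlaps Mars (890 counts) by 68 bases and Gm4189, not among the symbols, by 13. Eif2a overlaps Serp1 (172 counts) by 72 bases. Between ISRIB and vehicle, 0 of the 9 genes passed in M0, in M1, in their average or in the interaction by edgeR. At an unadjusted p under 0.05 the number was 1 in M0, 0 in M1, 1 in the average and 1 in the interaction, each time Eif5.

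**Figure D4:**
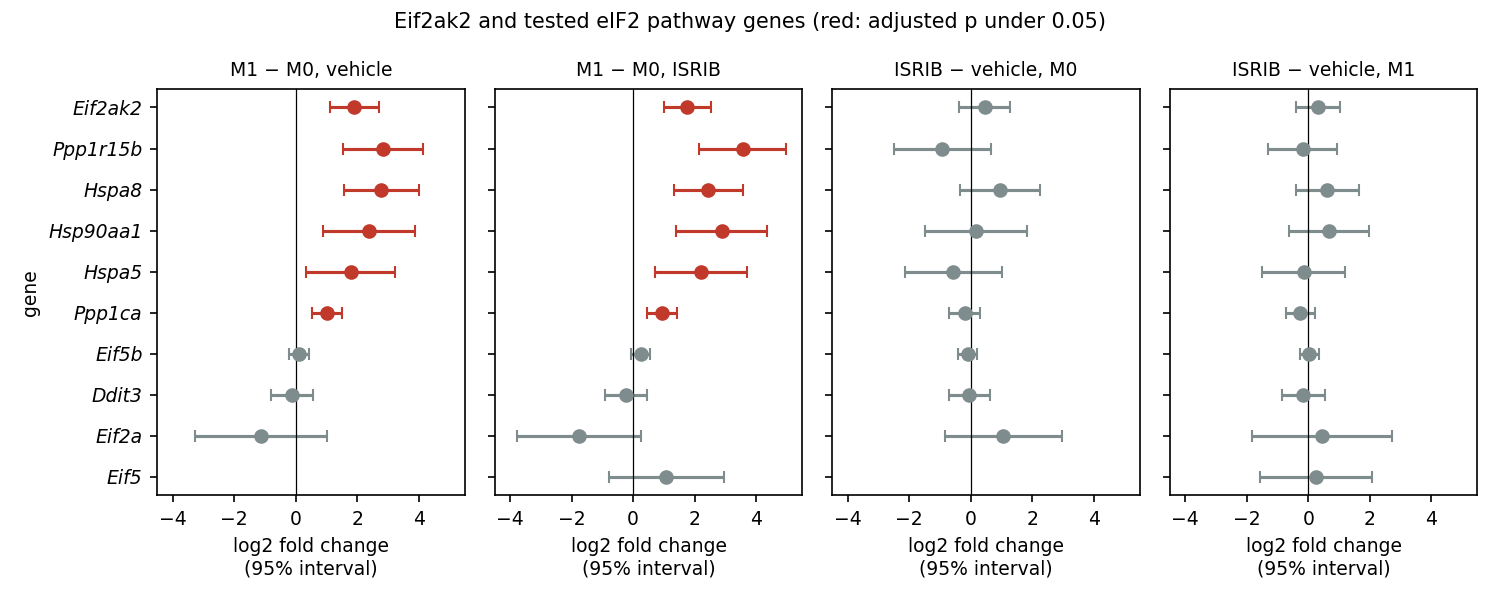
Log2 fold changes with 95% intervals (horizontal axis) of Eif2ak2 and the 9 tested pathway genes (rows) in 4 comparisons (panels), red where edgeR's adjusted p was under 0.05. Eif2ak2, Ppp1r15b, Hspa8, Hsp90aa1, Hspa5 and Ppp1ca are red in both M1 comparisons, and no gene is red where ISRIB is set against vehicle. Eif5 is left out where it is set against vehicle M0, in which it had no counts.

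The tested genes most like Eif2ak2 over the 12 libraries, by Pearson correlation of log2 CPM, were Serpina3g (0.951), Casp1 (0.943) and Mndal (0.941), among 2355 genes compared with a median of -0.02. Serpina3g is a protease inhibitor, Casp1 the inflammasome protease and Mndal an interferon-inducible nuclear protein. Casp1 had 0, 0 and 1 counts in vehicle M0, 22, 16 and 10 in vehicle M1, 0 in all of ISRIB M0 and 13, 27 and 26 in ISRIB M1. Serpina3g and Mndal also had at most 2 counts in any M0 library, and both belong to families of near-identical genes among which reads can be split. All 12 libraries share the division into M0 and M1, and the correlations are given as a description.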

How the data were processed

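Polyadenylated RNA of 12 macrophage cultures was sequenced from strand-specific TruSeq libraries, per the labels' protocols. The authors deposited whole-number counts per gene symbol and, for the same symbols, log2 values. The deposited log2 values equal log2(1 + count / s), with 1 constant s for each library between 0.807 and 1.22. FastQC, HTSeq, DESeq2 and the build mm10 are named in the submitters' processing notes, and the aligner, annotation, strand setting and treatment of reads in overlapping genes are not given in the sources used here.

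The main test used edgeR 4.0.16 under R 4.3.3. filterByExpr (minimum count 10, minimum total 15) kept 2356 genes with 97.6% of the counts. Libraries were scaled by TMM, 1 mean per group was fitted to all 12 samples without a replicate block, and 7 contrasts were tested by glmQLFTest with Benjamini-Hochberg adjustment over the 2356 genes and a threshold of 0.05. SEs follow from the test statistic. The procedure was run on simulated counts of genes past the filter, with the same spread for all genes and changes in vehicle M1 only. That run does not bear on genes below the filter. Alternatives used DESeq2 1.42.0 and limma 3.58.1, among others. The labels call replicates biological and do not name animals, so p-values measure the spread between these samples. Overlaps and positions come from GENCODE M21 and sequences from RefSeq.

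The members, the pathway list and the motifs were chosen with earlier results of these data known. Genes named were all members, their opposite-strand neighbours, list genes past the threshold in any contrast, and the 3 tested genes most correlated with a tested member. The housekeeping genes and the single macrophage and dendritic markers were named after their values were seen. So were the opposite-strand neighbours of list genes, such as Rad9a and Gm26616, and the list genes named with counts only or from another fit. 1 motif searched is not reported here.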

Additional observations from a re-analysis of the deposited data

How the results depend on the processing

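Eif2ak2 was called higher in M1 in vehicle, in ISRIB and in their average under every alternative that tested it, with log2 fold changes of 1.58 to 2.20, 1.46 to 1.93 and 1.67 to 1.97. These covered both other scalings, the DESeq2 test, limma fitted to the deposited log2 values, limma-voom, an added minimum log2 change of 1, no filter, only the compared groups where 2 groups were compared, the replicate block, halved counts (chosen after seeing the data) and each sample left out. With a minimum mean of 50 counts, 836 genes were tested, no member was left, and the number called was 0 in these 3 contrasts. With single replicates left out, the number called stayed at 1 in vehicle and 1 in ISRIB and ranged from 1 to 2 in the average. In the 4 ISRIB contrasts 0 members were called under each alternative. Same-numbered samples deviated from their group means with correlations from -0.0600 to 0.113 over 18 pairs, which did not show a pairing, and with the replicate block Eif2ak2 had a log2 fold change of 1.89 in vehicle (adjusted p of 0.000422 by edgeR) and the number of members called was 1 in vehicle, 1 in ISRIB, 1 in their average and 0 in the rest. The Eif2ak2 interaction reversed only with single replicates left out, ranging from -0.47 to 0.18. Without the filter, the M1 difference of Eif2ak1 reversed with DESeq2, to 0.027, and ranged from -0.32 to 0.22 with single replicates left out. The ISRIB difference of Eif2ak4, averaged over M0 and M1, was -0.03, and reversed with the block, to 0.058, with halved counts, to 0.045, and with single replicates left out, between -0.50 and 2.09. The causes were not tested. Hspa5 in vehicle lost its call with the replicate block (edgeR adjusted p of 0.0591), and over all genes edgeR with the block called 3 in the interaction and 0 in the 3 other ISRIB contrasts. The 4 members with an opposite-strand neighbour were 4 by exons and by gene bodies. Of the members, 9 had too few counts for the filter, and Eif2ak2 too few for a minimum mean of 50.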
